A study of Mus musculus with 8 samples.

Results

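Cyclic nucleotide signalling genes and A-kinase anchoring protein (AKAP) genes were examined in RNA-seq of mouse testis, in 4 libraries of genotype CTL and 4 of genotype N6amt1-SKO. The genes were taken by symbol: adenylyl cyclases (Adcy), guanylyl cyclases (Gucy), lettered phosphodiesterases (Pde), subunits of protein kinase A (PKA; Prkac and Prkar), protein kinase G (PKG; Prkg) and numbered Akap genes. The rule found 55 of the 17121 genes in the table, and all 55 passed the filter on low values. They comprise 9 adenylyl cyclases, 4 guanylyl cyclases, 20 phosphodiesterases, 2 catalytic and 4 regulatory PKA subunits, 1 PKG gene and 15 AKAPs.

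The series asks by what mechanism the methyltransferase N6AMT1 acts in sperm formation. The labels give neither the age of the mice nor the meaning of SKO, the Cre driver, the deleted exons or the genotype of the controls beyond CTL. Whether each library is its own animal is not stated, so a p-value here reflects only library-to-library variation, possibly technical. SKO-labelled is used below for N6amt1-SKO, and libraries are named by group and replicate.

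Cyclic AMP and cyclic GMP are second messengers made from ATP and GTP by cyclases and broken down by phosphodiesterases. Cyclic AMP frees the catalytic subunits of PKA from their regulatory subunits, and AKAPs hold PKA at particular places in the cell. In the testis, follicle-stimulating hormone and luteinising hormone raise cyclic AMP in Sertoli and Leydig cells. Sperm rely instead on the bicarbonate-sensitive soluble adenylyl cyclase encoded by Adcy10, and AKAP3 and AKAP4 build the fibrous sheath of the sperm tail.

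The 3 sperm genes are shown first by their promoters, because their levels are the ones compared below with the general members. Promoter windows (RefSeq, GRCm38.p6; 250 bases before to 50 after an annotated start) were found for 48 of the 55 genes. In Akap3 (chr6:126852848-126853147, plus strand) and Akap4 (chrX:7067265-7067564, plus strand, the more upstream of 2 starts) capitals mark a run of 20 bases present in both windows. In Adcy10 (chr1:165484933-165485232, plus strand) capitals mark a CCAAT box.
Akap3: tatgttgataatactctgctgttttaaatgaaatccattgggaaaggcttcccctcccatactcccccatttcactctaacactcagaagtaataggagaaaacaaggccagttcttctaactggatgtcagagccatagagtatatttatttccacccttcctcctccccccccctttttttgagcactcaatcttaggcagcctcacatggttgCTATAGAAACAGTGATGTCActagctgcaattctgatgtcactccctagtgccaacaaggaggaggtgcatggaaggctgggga
Akap4: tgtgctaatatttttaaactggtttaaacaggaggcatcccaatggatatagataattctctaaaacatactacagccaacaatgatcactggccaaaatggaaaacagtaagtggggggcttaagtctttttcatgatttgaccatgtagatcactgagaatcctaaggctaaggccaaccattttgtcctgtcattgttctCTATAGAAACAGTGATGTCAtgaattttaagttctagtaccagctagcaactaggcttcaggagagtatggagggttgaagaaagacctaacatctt
Adcy10: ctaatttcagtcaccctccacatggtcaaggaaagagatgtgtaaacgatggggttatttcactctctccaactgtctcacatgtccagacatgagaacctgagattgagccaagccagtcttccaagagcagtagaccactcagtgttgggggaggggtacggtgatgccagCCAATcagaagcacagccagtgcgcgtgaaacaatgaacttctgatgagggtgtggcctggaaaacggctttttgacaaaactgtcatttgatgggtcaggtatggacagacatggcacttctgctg

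The run CTATAGAAACAGTGATGTCA starts 34 bases before the Akap3 start (chr6:126853064-126853083) and 47 bases before that of Akap4 (chrX:7067468-7067487). Of 3841 pairs of windows from different members this pair shared the longest run, the next sharing 17 bases. On either strand the run was present in 2 of 32851 mouse promoter windows, those of Akap3 and Akap4. Its last 8 bases, TGATGTCA, occurred in the windows of 1130 of 27025 genes and of 5 of the 48 member genes (Akap3, Akap4, Akap6, Pde10a and Pde1a). The run was looked for after the sequences had been seen, and a match describes letters, not a binding site.

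The cyclic AMP response element (CRE, TGACGTCA), the site of the CREB and CREM factors at the end of the PKA pathway, was searched on both strands. It occurred in 1.79% of all windows and in 2 of the 89 windows of the members, both of Prkar1a. These windows overlap and hold the same site, so the CRE was found in 1 of 48 member genes. Its core TGACG, which lies within the CRE, occurred in 20.8% of all windows and in 18 of the 89, none of them of Adcy10, Akap3 or Akap4. A CCAAT box (either strand) was present in 37.4% of all windows and in 34 of the 89, among them 1 of each sperm gene. For these motifs the share of member windows is close to that of all windows. Windows of PKA subunits that hold several of these motifs are shown next, with the CCAAT box, the CRE and its core in capitals. They do not stand for all PKA subunits. The windows of Prkar2b and the more downstream one of Prkaca hold none of these motifs. Shown are Prkar1a (chr11:109650699-109650998, plus strand, the fifth of 6 starts) and Prkaca (chr8:83972728-83973027, plus strand, the more upstream of 2 starts).
Prkar1a: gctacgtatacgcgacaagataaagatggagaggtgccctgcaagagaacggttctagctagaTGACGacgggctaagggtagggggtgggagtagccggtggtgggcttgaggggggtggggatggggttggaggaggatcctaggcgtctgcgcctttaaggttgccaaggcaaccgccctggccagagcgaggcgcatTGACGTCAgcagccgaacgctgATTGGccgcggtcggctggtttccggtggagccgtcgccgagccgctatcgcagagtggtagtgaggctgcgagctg
Prkaca: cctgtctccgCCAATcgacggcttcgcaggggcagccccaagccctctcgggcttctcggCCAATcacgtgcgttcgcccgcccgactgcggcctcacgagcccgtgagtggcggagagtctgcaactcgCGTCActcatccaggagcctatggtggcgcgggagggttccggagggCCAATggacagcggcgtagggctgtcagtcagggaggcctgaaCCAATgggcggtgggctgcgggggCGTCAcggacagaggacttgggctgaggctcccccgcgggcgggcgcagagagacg

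The deposited values were read counts scaled per library and rounded, and library totals lay between 94183701 and 103106684. The scaling steps put 40.6 M to 65.6 M reads behind the SKO-labelled libraries and 57.4 M to 258 M reads behind the CTL libraries. For CTL 1 and CTL 2 the factors were 0.394 and 0.458. Below 1, 100% of values are rounded multiples by chance, so the depths of these libraries are estimates that this check cannot support. 18S ribosomal RNA took 0.721% to 0.969% of the values in CTL 3, CTL 4 and SKO 4 and 0.173% to 0.273% in the other 5 libraries, and values are also given within each of these 2 sets. The set with more 18S holds 1 SKO-labelled library, so its p-values carry no spread from that group. Among the CTL libraries the split goes with estimated depth (258 M and 225 M reads against 70.1 M and 57.4 M). It also goes with the elongating spermatid markers below, and what lies behind it was not tested. Mitochondrial transcripts took 1.13% to 1.99% in CTL and 2.11% to 4.53% in SKO-labelled libraries, and their part in the results was not tested. N6amt1 itself (chromosome 16) had means of 513 ± 84.6 in CTL and 582 ± 31.1 in SKO-labelled libraries (n = 4 each, SD; limma adjusted p = 0.437). With library totals as the scaling its log2 fold change was 0.48 (limma adjusted p = 0.0441). A value over the whole gene does not check the genotype labels where the deleted part is not known. The extraction protocol names heart ventricles, but summed values of 10 elongating spermatid markers were 186202 to 863796 per library against 2281 to 6882 for 6 tested heart muscle markers. The heart muscle sums were 2281 to 2897 in CTL and 4377 to 6882 in SKO-labelled libraries. All 6 markers had a positive log2 fold change (median 0.86), and Tnni3 and Tnnt2 passed as higher. What lies behind this was not tested.

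Levels per kb of exon are shown in the plot of levels by role. Akap12, Akap4 and Akap3 were the most abundant members, with means over the 8 libraries of 28555, 21098 and 19731 normalised values per kb. Pde8a followed with 10610.4 per kb, and then Prkar1a, the type I alpha regulatory subunit of PKA, with 7525 per kb. Adcy10 had 3421 per kb, against 413 for Adcy7, the most abundant membrane cyclase. Among catalytic subunits Prkaca had 5062 per kb and Prkacb 379.9. Guanylyl cyclases were low throughout, the most abundant being Gucy1a1, a subunit of the nitric oxide receptor, with 153 per kb. The fewest reads behind a member's value were 10 for Pde4c, 12 for Gucy2d and 19 for Pde9a, and every other member had at least 20 reads in each library.

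**Figure D1:**
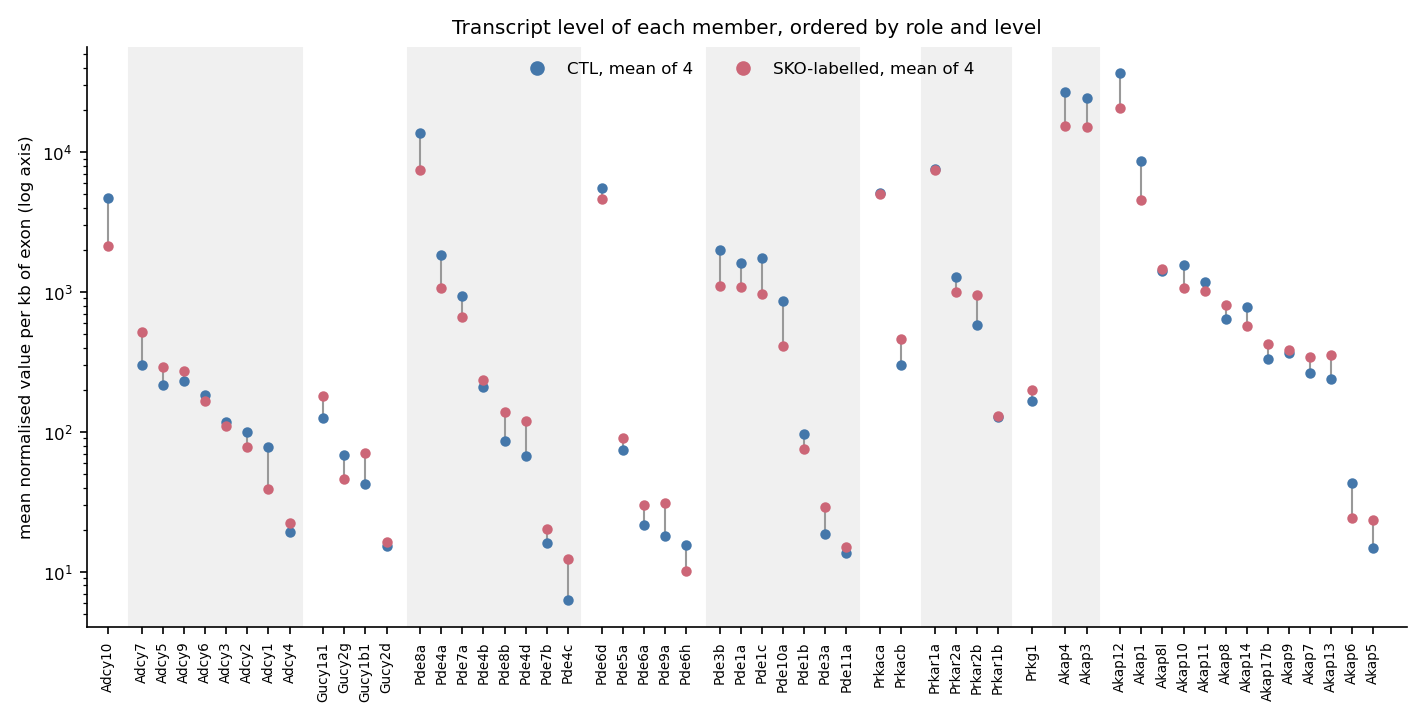
Mean normalised value per kb of exon (log axis) for the 55 members, ordered by role (shaded blocks) and level; blue points are the means of 4 CTL libraries and red points those of 4 SKO-labelled libraries. Akap12, Akap4 and Akap3 stand highest, and Adcy10 lies well above the membrane cyclases.

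Of the 55 members, 3 were higher and 8 were lower in SKO-labelled libraries at a limma adjusted p below 0.05, and 44 did not pass. The called share, 20% of members, is near the 19.9% of all 17066 genes tested and so is no result about these genes. By direction, 14.5% of members were lower against 7.93% of all genes, and 5.45% were higher against 11.9% of all genes. Counts by role and class below stand beside these shares of all genes, and none of them was tested. The median log2 fold change of the members was 0.03 and that of all genes 0.04. In a whole tissue, fewer cells of a type and less RNA per cell cannot be told apart.

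The lower genes were Adcy10, Pde10a, Pde8a, Pde1c, Akap6, Pde3b, Akap12 and Akap10, and the higher ones Adcy7, Pde8b and Prkacb. The groups did not overlap for 9 members in the lower and 4 in the higher direction, 23.6% of members against 26.1% of all genes. Beside the called genes these were Gucy2g (lower), Pde4c and Akap8 (higher), while the groups of Pde8b overlapped.

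These calls depended on single libraries and on the scaling. Without SKO 3 no member passed (limma adjusted p between 0.0569 and 0.137 for the 11 genes), nor did any other gene; 14 members then had an unadjusted p below 0.05, against 19 with all 8 libraries, where 37.0% of all genes did. Higher and lower members numbered 0 and 3 without CTL 3, 1 and 2 without SKO 1, and also 1 and 2 without SKO 2. Over all genes these fits called, in the same order, 688 and 549, 812 and 469, and 829 and 504. Members numbered 1 and 8 without CTL 1 or without CTL 2, 6 and 10 without CTL 4, and 5 and 8 without SKO 4. Over all genes the numbers were 1392 and 1389 without CTL 1 and 1108 and 1190 without CTL 2. They were 1899 and 1454 without CTL 4 and 2455 and 1526 without SKO 4. With library totals as the scaling, which moved the median of all genes to 0.33, 14 members were higher and 4 lower. Over all genes, 2038 were higher and 1354 lower, against 1602 and 1657 with median-ratio factors and 4885 and 456 with library totals. Within the 5 libraries with less 18S, 8 members were higher and 12 lower, against 3194 and 2283 of 17003 genes. Within the 3 with more 18S the median log2 fold change was -0.48 for the sperm and -0.17 for the general members.

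**Figure D2:**
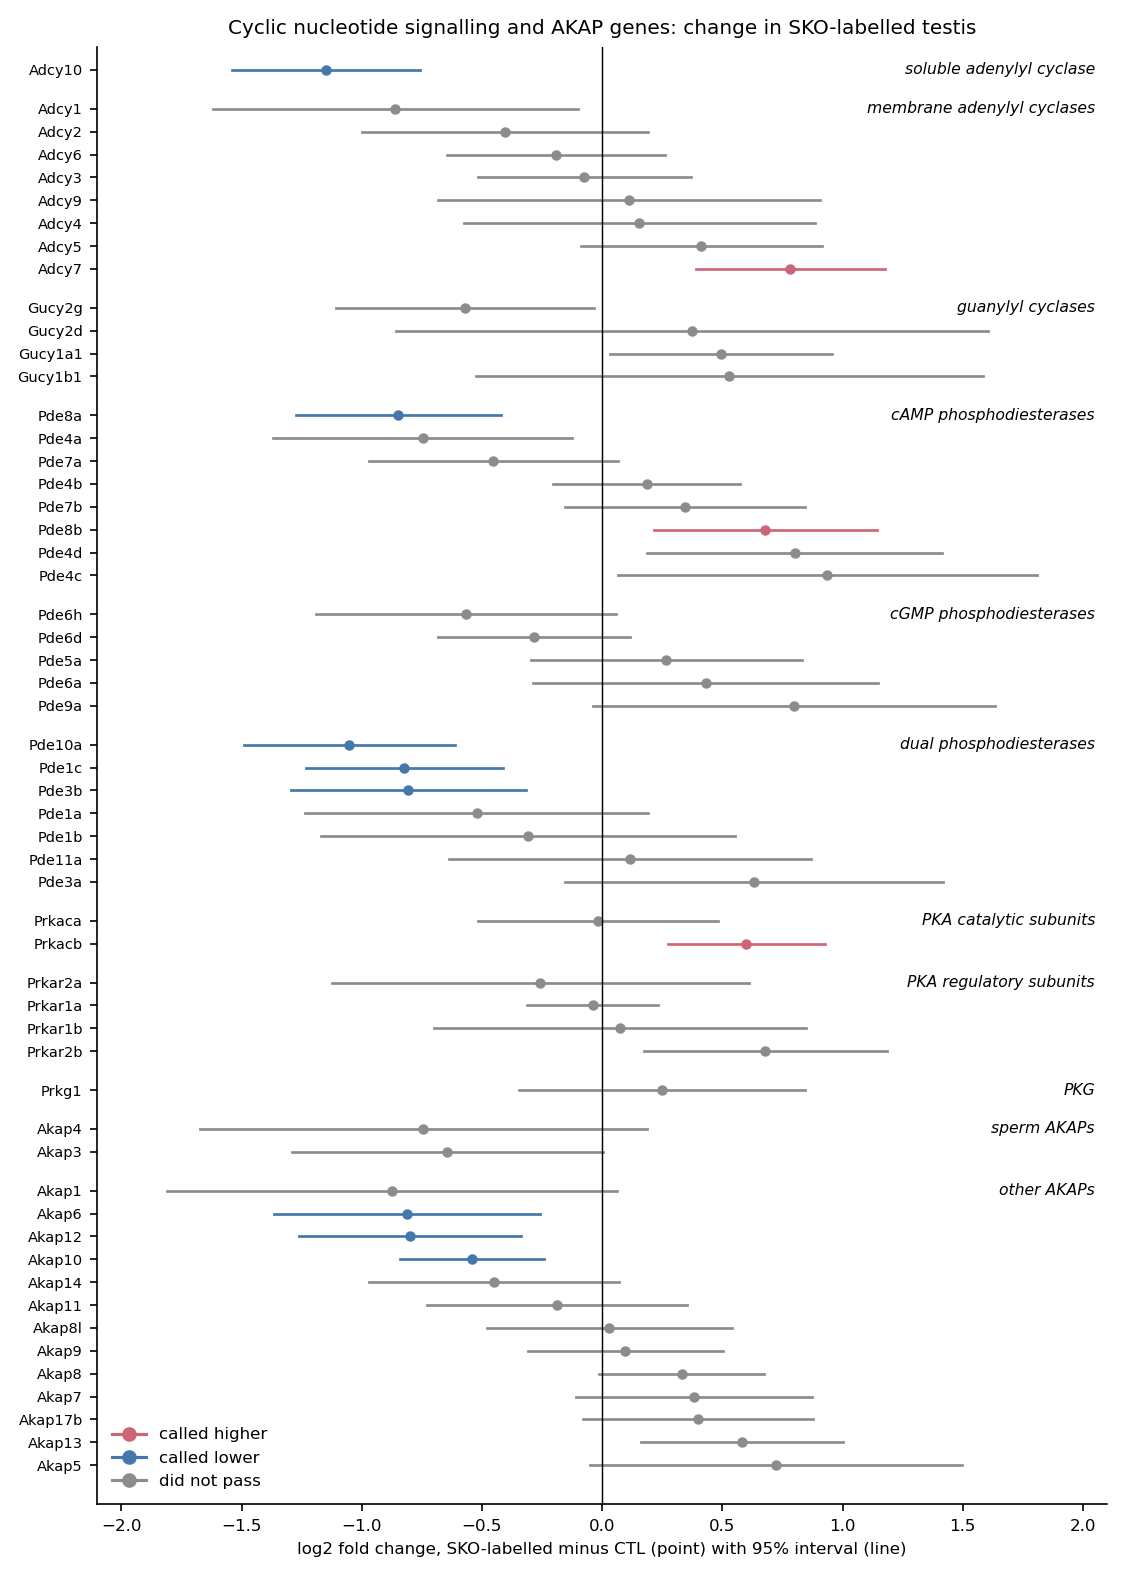
Log2 fold change of each member in SKO-labelled against CTL libraries (points) with its 95% interval from limma (lines), grouped by role, n = 4 per group. The 8 lower genes are blue, the 3 higher genes red, and the 44 that did not pass grey.

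Adcy10, the cyclase that supplies cyclic AMP for sperm motility, showed the largest fall of all members. Normalised values of this gene were 31404, 42497, 50636 and 40597 in CTL libraries 1 to 4, against 20005, 21497, 16392 and 16121 in SKO libraries 1 to 4. Every SKO-labelled library lay below every CTL library. The means were 41283 ± 7896 and 18504 ± 2668 (n = 4 each, SD), a 2.22-fold lower level, with a log2 fold change of -1.15 (standard error 0.18; limma adjusted p = 0.0123). It ranked 84 by p among the 17066 genes. The change was -0.93 within the libraries with less 18S (limma adjusted p = 0.0176) and -1.47 within those with more 18S, where SKO 4 is the only SKO-labelled library. Without SKO 3 it was -1.09, and the adjusted p rose to 0.0569.

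Akap3 and Akap4, which encode the main proteins of the fibrous sheath, had lower means in SKO-labelled libraries but did not pass. Akap3 (chromosome 6, 126853098 to 126874308) had 81502, 102750.0, 81152 and 41263 in CTL libraries 1 to 4, against 66166, 43473, 36358 and 45032 in SKO libraries 1 to 4. CTL 4 lay among the SKO-labelled libraries and SKO 1 stood above the other 3 of its group. The log2 fold change was -0.64, with a 95% interval from -1.29 to 0.0020 (limma adjusted p = 0.136).

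Akap4 (X chromosome, 7067519 to 7078609) had 94585, 126436, 71135 and 32929 in CTL libraries 1 to 4, against 78508, 39864, 33154 and 34301 in SKO libraries 1 to 4. CTL 4 was the lowest of all 8 libraries, and SKO 1 was higher than CTL 3. The log2 fold change was -0.74, with a 95% interval from -1.67 to 0.19 (limma adjusted p = 0.222). Both genes passed without CTL 4 (Akap3 -0.95, limma adjusted p = 0.0236; Akap4 -1.16, limma adjusted p = 0.0387). They also passed within the libraries with less 18S (Akap3 -0.96, limma adjusted p = 0.0328; Akap4 -1.22, limma adjusted p = 0.0407). Within those with more 18S the changes were -0.34 and -0.48.

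The order of the libraries differed between Adcy10 and the sheath AKAPs. Summed values of 10 elongating spermatid markers ran from 186202 (CTL 4) to 863796 (CTL 2) in CTL and from 243956 (SKO 4) to 698591 (SKO 1) in SKO-labelled libraries. The 4 libraries highest in that sum (CTL 2, CTL 1, SKO 1 and CTL 3) were, in the same order, the 4 highest in Akap4. That order depended on Odf2, which had the largest values in the sum, 133058 of the 186202 in CTL 4. Odf2 stood at 241195 in CTL 1 and 174076 in SKO 1, and without it SKO 1 comes before CTL 1. None of those 10 markers passed in limma, and 1 had an unadjusted p below 0.05. Summed values of 10 pachytene spermatocyte markers did not overlap, at 677232 to 837995 in CTL and 494534 to 561376 in SKO-labelled libraries. Within the groups Adcy10 did not follow that sum. Adcy10 was highest in CTL 3 (50636) and SKO 2 (21497), whereas the pachytene sum was highest in CTL 2 and lowest in SKO 2. Ldhc and Hspa2, with CTL means of 277533 and 206485, had the largest values in that sum. Taken singly, 6 of the 10 markers overlapped between the groups. Of these 10 markers 5 were lower and 0 higher (median log2 fold change -0.57). Of 10 round spermatid markers 1 was lower, Spata16, and the sums were 105249 to 195629 and 78767 to 130328. The part of these cell types in the levels of the 3 sperm genes was not tested.

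**Figure D3:**
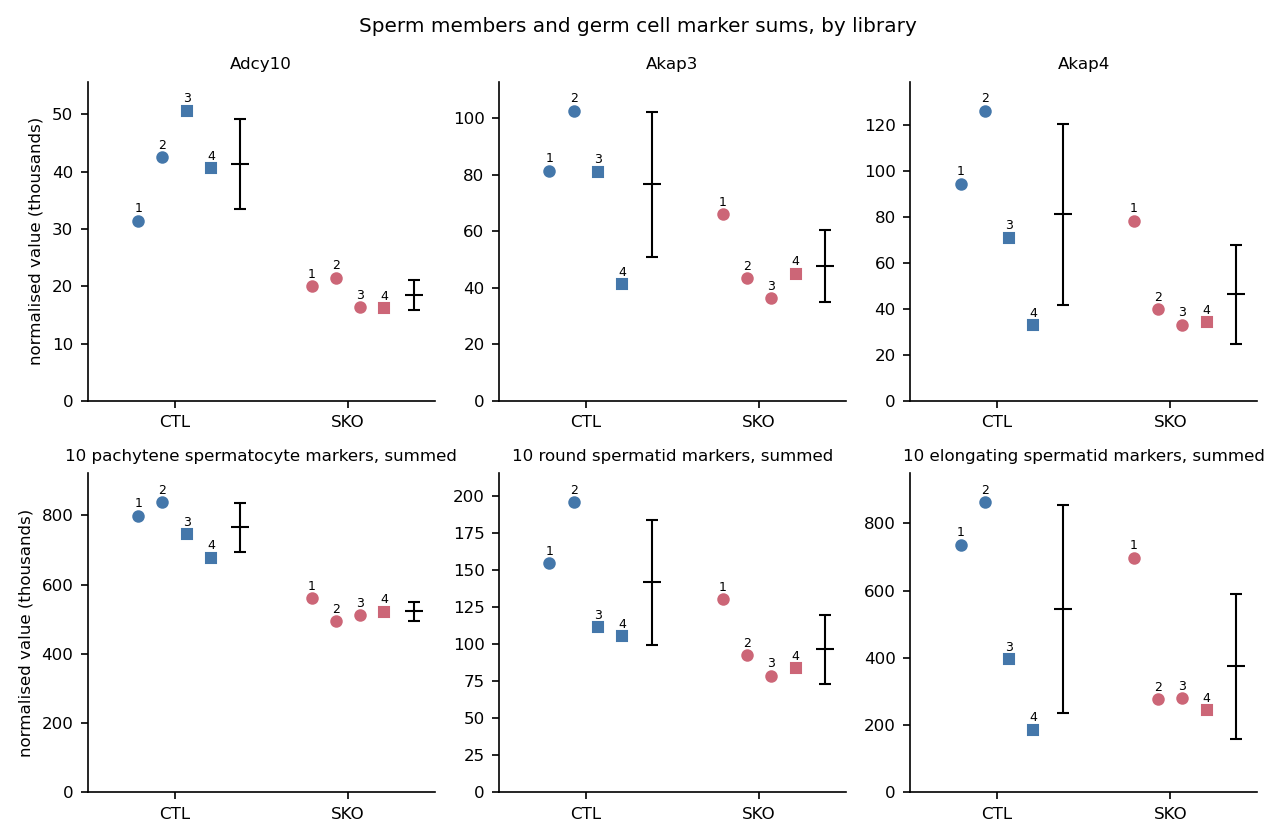
Normalised values of Adcy10, Akap3 and Akap4 (top row) and summed values of 3 marker lists of 10 genes each (bottom row) in every library; numbers are replicates, squares are the 3 libraries with more 18S, and bars give mean and SD of 4. Adcy10 separates the groups, as the pachytene sum does, though 6 of its 10 markers overlap singly. Within the groups Adcy10 and that sum order the libraries differently. Akap3 and Akap4 are low in CTL 4 and high in SKO 1, as is the elongating spermatid sum.

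Set against the other members, the 3 sperm genes had a median log2 fold change of -0.74 (the value of Akap4) and the 52 general members one of 0.09. Of the 3 sperm genes 1 was lower. Of the general members 3 were higher and 7 lower, where 11.9% of all genes were higher and 7.93% lower. The difference of the medians was -0.83, and no test was made over so few chosen genes. It shrank to -0.30 without CTL 1 and CTL 2 and was -1.19 without CTL 4. Relative to the CTL mean of each gene, the sperm genes' median was 0.16, 0.50, 0.16 and -0.82 in CTL libraries 1 to 4, against -0.14, -0.87, -1.13 and -1.08 in SKO libraries 1 to 4. That of the general members stayed between -0.27 and 0.21 in every library. A median over 3 genes varies more than one over 52, so the 2 ranges are not compared.

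Among the membrane adenylyl cyclases, which answer to hormone receptors through G proteins, 1 of 8 was higher, 0 were lower and 7 did not pass. Adcy7 had 2030.1, 1975, 1656 and 2505 in CTL libraries 1 to 4, against 2824, 3848, 4143 and 3253 in SKO libraries 1 to 4. All SKO-labelled libraries lay above all CTL libraries. The fold was 1.72 (log2 0.78, standard error 0.18; limma adjusted p = 0.0190). Without CTL 3, SKO 2 or SKO 3 the call was lost, with adjusted p up to 0.0692. Within the libraries with less and with more 18S its changes were 0.83 and 0.69.

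The other membrane cyclases ranged from -0.86 for Adcy1, a calcium-stimulated cyclase, to 0.41 for Adcy5. Adcy1 had 569 and 568 in CTL 1 and 2 but 1232 and 1542 in CTL 3 and 4, against 386 to 598 in SKO-labelled libraries (limma adjusted p = 0.0978). Its CTL values thus divided by the 18S split. Adcy3 shares 22.1% of its exon bases with Cenpo on the opposite strand, so reads of these 2 genes cannot be separated there.

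Of the 4 guanylyl cyclase genes none passed; 2 had an unadjusted p below 0.05. Gucy1a1 and Gucy1b1 encode the soluble cyclase that responds to nitric oxide. Gucy1a1 had means of 881 ± 172 and 1253 ± 303 (n = 4 each, SD), a log2 fold change of 0.49 with a 95% interval from 0.03 to 0.96 (limma adjusted p = 0.114). Gucy2g, a receptor-type cyclase, had 225 to 324 in CTL and 126 to 217 in SKO-labelled libraries and did not overlap, with a log2 fold change of -0.57 (limma adjusted p = 0.116).

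Of the 8 cyclic AMP-specific phosphodiesterases 1 was lower, 1 was higher and 6 did not pass. Pde8a, a high-affinity enzyme, had 43186, 44642, 65332 and 68924 in CTL libraries 1 to 4, against 27228, 28377, 29911 and 35751 in SKO libraries 1 to 4. The groups did not overlap, and CTL 3 and CTL 4 stood above the other CTL libraries. It was 1.80-fold lower (log2 -0.85, standard error 0.19; limma adjusted p = 0.0190).

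Pde8b, its close relative, had 444, 409.6, 558 and 622 in CTL libraries 1 to 4, against 833, 607, 976 and 854 in SKO libraries 1 to 4. SKO 2 lay just below CTL 4, and the other 3 SKO-labelled libraries were above all CTL libraries. Its fold was 1.60 (log2 0.68, standard error 0.21; limma adjusted p = 0.0461). Per kb of exon Pde8a exceeded Pde8b, with 10610.4 against 113 over all libraries. The other 6 genes of this role did not pass, from -0.75 for Pde4a (limma adjusted p = 0.0829) to 0.94 for the barely detected Pde4c.

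The phosphodiesterases that hydrolyse both cyclic nucleotides held 3 of the 8 lower genes, with 0 higher and 4 not passing. Over all genes 7.93% were lower, and so small a count was not tested. Pde10a had 8809.8, 8684, 11823 and 15166 in CTL libraries 1 to 4, against 4496, 5955, 5536 and 5002 in SKO libraries 1 to 4. It was 2.07-fold lower without overlap (log2 -1.05, standard error 0.20; limma adjusted p = 0.0137). Pde1c, a calcium and calmodulin-stimulated enzyme, had 27950.2, 27505, 38756 and 45305 in CTL libraries 1 to 4, against 17589, 19559, 18629 and 21543 in SKO libraries 1 to 4. It was 1.77-fold lower (limma adjusted p = 0.0188).

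Pde3b, an enzyme whose cyclic AMP breakdown is inhibited by cyclic GMP, went from 18192 ± 5553 to 10100.4 ± 1309.8 (n = 4 each, SD), 1.75-fold lower without overlap (limma adjusted p = 0.0327). In all 3 genes CTL 3 and CTL 4 were the highest libraries, and the changes were smaller within the libraries with less 18S (Pde10a -0.73, Pde1c -0.58 and Pde3b -0.47) than within those with more (-1.40, -0.94 and -1.05). Pde3b just missed the threshold within the former (limma adjusted p = 0.0506). Pde8a likewise changed by -0.63 and -0.89. The difference between the sets was not tested. Pde1c, Pde3b and Pde8a each lost their call without CTL 3, SKO 1, SKO 2 or SKO 3 (adjusted p up to 0.0947), Pde10a only without SKO 3 (adjusted p = 0.0569). Pde8b lost its call without any 1 of CTL 1, CTL 2, CTL 3, SKO 1, SKO 3 and SKO 4 (adjusted p up to 0.137). It also lost it with median-ratio factors (limma adjusted p = 0.0675) and, narrowly, with an exon length correction.

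None of the 5 genes grouped as cyclic GMP phosphodiesterases passed, and 0 had an unadjusted p below 0.05. The most abundant, Pde6d, encodes a carrier of prenylated proteins rather than an enzyme. It had means of 12153 ± 1654 and 10100.4 ± 2311 (n = 4 each, SD; limma adjusted p = 0.275), and its sign turned with library totals (0.0068). Pde9a had 38.8 to 104 in CTL and 77.1 to 145 in SKO-labelled libraries (limma adjusted p = 0.152). Pde5a, the target of sildenafil, had means of 731 and 889 (limma adjusted p = 0.479).

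**Figure D4:**
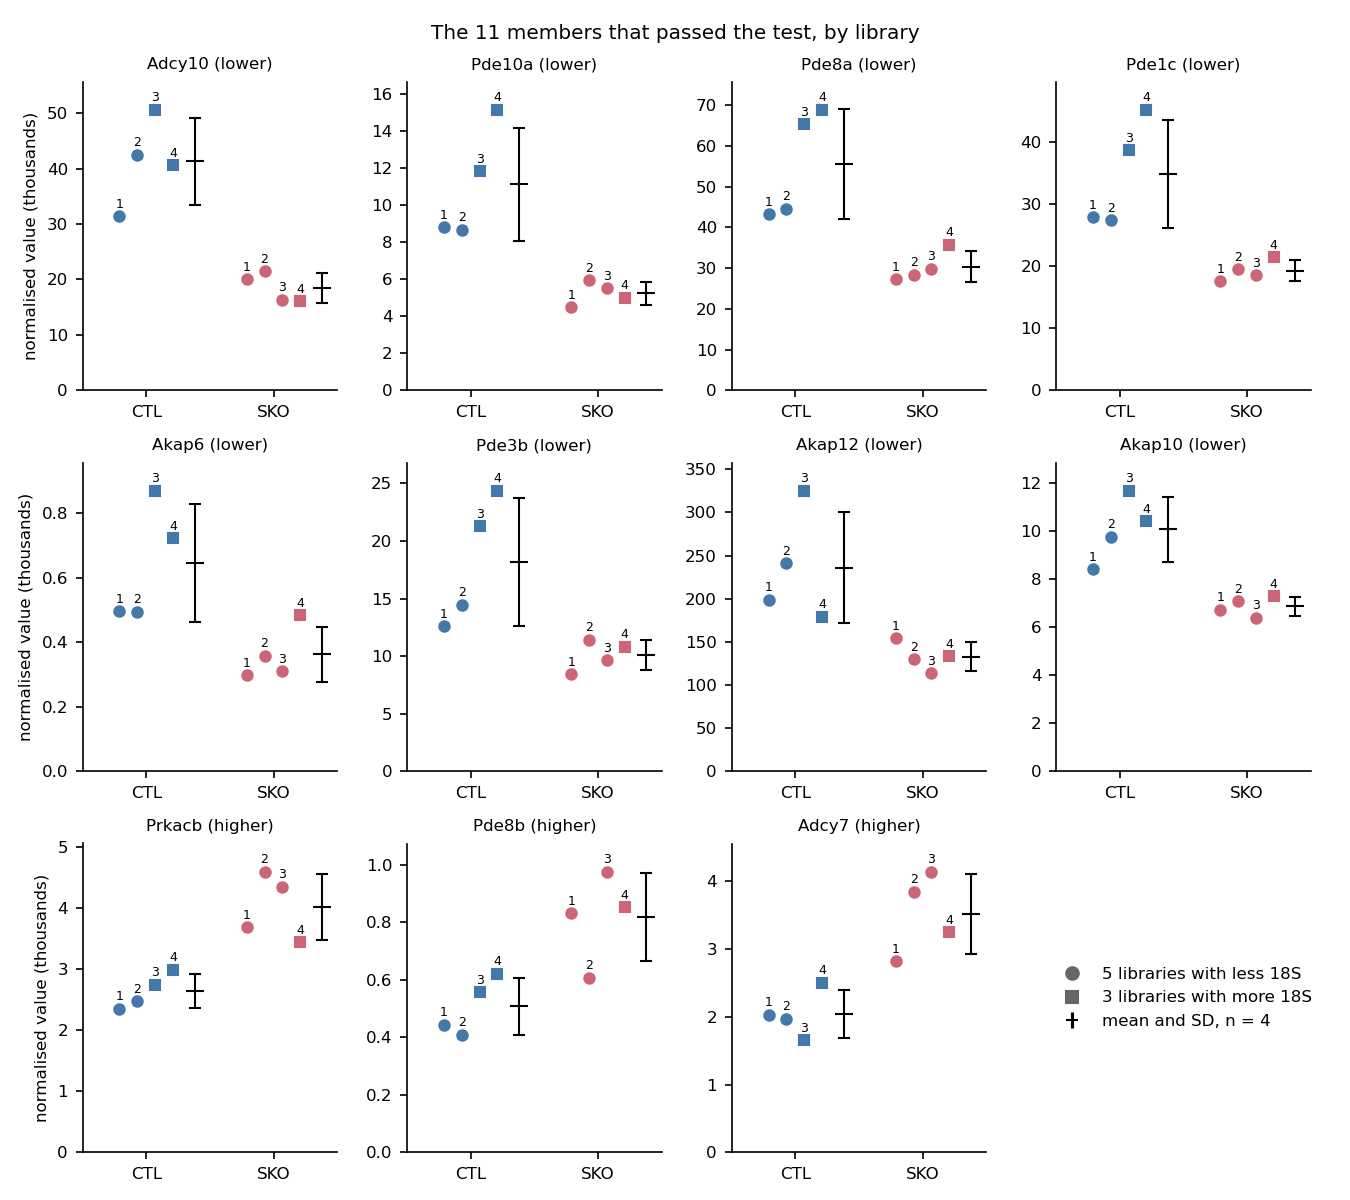
Normalised values of the 11 members that passed the test, in every library, with the mean and SD of 4; numbers are replicates, and squares mark the 3 libraries with more 18S. The groups are apart in 10 of the 11 panels; in Pde8b, SKO 2 lies below CTL 4.

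Of the 2 catalytic subunits of PKA 1 was higher, and the difference between them was not tested. Prkacb, the beta catalytic subunit, had 2357, 2479, 2748 and 2992 in CTL libraries 1 to 4, against 3694, 4601, 4352 and 3439.6 in SKO libraries 1 to 4. It was 1.52-fold higher without overlap (log2 0.60, standard error 0.15; limma adjusted p = 0.0233). The change was 0.79 within the libraries with less 18S and 0.28 within those with more, and the call was lost without CTL 1, CTL 2, CTL 3, SKO 1, SKO 2 or SKO 3 (adjusted p up to 0.0813). Prkaca, whose sperm form starts from its own first exon, had means of 12742 ± 3289.6 and 12448 ± 2356 (n = 4 each, SD). Its log2 fold change of -0.02 had a 95% interval from -0.52 to 0.48 (limma adjusted p = 0.967), and its sign turned with library totals (0.27). A value summed over the gene cannot separate the 2 forms.

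Of the 4 regulatory subunits none passed, and 1 had an unadjusted p below 0.05. Prkar1a overlapped between the groups, with 33710.2, 33392, 35135 and 29630.1 in CTL libraries 1 to 4, against 29865, 33049, 34649 and 30705 in SKO libraries 1 to 4. Its log2 fold change was -0.04, with a 95% interval from -0.31 to 0.23 (limma adjusted p = 0.850), and 0.25 with library totals. Prkar2b had means of 2129.6 ± 441 and 3458 ± 976 (n = 4 each, SD; log2 0.68; limma adjusted p = 0.0603). It passed without SKO 4, at 0.81 (limma adjusted p = 0.0366). Prkar2a, the type II alpha subunit, ranged from 3545 (CTL 4) to 13166 (CTL 2) within CTL alone (log2 -0.26; limma adjusted p = 0.672). Prkg1, the type I cyclic GMP-dependent kinase of smooth muscle, had means of 1809.8 ± 463 and 2153 ± 551 (n = 4 each, SD; limma adjusted p = 0.531).

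Of the 13 AKAPs other than Akap3 and Akap4, 3 were lower, 0 were higher and 10 did not pass, where 7.93% of all genes were lower. Akap12, a scaffold also called gravin, was the most abundant member. It had 199022, 241303, 325255 and 179093 in CTL libraries 1 to 4, against 154476, 129700, 113698 and 133417 in SKO libraries 1 to 4. The groups did not overlap, and it was 1.74-fold lower (log2 -0.80, standard error 0.21; limma adjusted p = 0.0277).

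Akap10, which binds both kinds of regulatory subunit, went from 10069 ± 1366 to 6877 ± 394 (n = 4 each, SD), 1.46-fold lower (limma adjusted p = 0.0249). Akap6, known as the anchor of the nuclear envelope in muscle, went from 645 ± 184 to 362 ± 84.8 (n = 4 each, SD), 1.75-fold lower (limma adjusted p = 0.0464). Within the libraries with less and with more 18S the changes were -0.74 and -0.84 for Akap12, -0.43 and -0.58 for Akap10, and -0.62 and -0.69 for Akap6. Akap12 lost its call without SKO 1, SKO 2 or SKO 3 (adjusted p up to 0.0973), and Akap10 also without CTL 3 (up to 0.0854). Akap6 lost it without those 4 or CTL 4 (up to 0.128). With library totals none of the 3 passed, nor did Pde3b, and Akap6 also did not with upper quartile factors (limma adjusted p = 0.0516).

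The remaining AKAPs ranged from -0.87 for the mitochondrial anchor Akap1 to 0.72 for Akap5. Akap1 had 39090.0, 58460.1, 40143 and 15178 in CTL libraries 1 to 4, against 32153, 20246, 15994 and 11888 in SKO libraries 1 to 4, and CTL 4 lay within the range of the SKO-labelled libraries (limma adjusted p = 0.160). Akap13 missed the threshold narrowly (log2 0.58; limma adjusted p = 0.0551). Akap14 and Akap17b, X-linked like Akap4, had log2 fold changes of -0.45 (limma adjusted p = 0.190) and 0.40 (limma adjusted p = 0.204).

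Direction went with abundance, a split made after the values had been seen. Among the 20 members most abundant per kb of exon 17 had a negative log2 fold change (median -0.53), with 6 members called lower and 0 higher. Among the other 35 members 25 had a positive one (median 0.27), with 3 called higher and 2 lower. The same lean was present in the whole table. Of 6674 genes at or above the level of the 20th member 64.4% had a negative change (median -0.18), 15.2% were called lower and 8.80% higher. Of the 10029 genes below it 35.8% had a negative change (median 0.22), 3.16% were called lower and 14.3% higher.

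Somatic and spermatogonial markers that passed were higher in SKO-labelled libraries, where 11.9% of all genes were higher and 7.93% lower. Of 16 Sertoli cell markers 13 were higher and 0 lower, and their sums were 100072 to 194588 in CTL and 204079 to 376533 in SKO-labelled libraries. Of 9 tested spermatogonial markers 5 were higher and 0 lower, with sums of 16196 to 20732 and 27669 to 32837. Of 9 tested peritubular myoid and smooth muscle markers 5 were higher and 0 lower, with sums of 36018 to 42883 and 53289 to 59309.7. Of 10 Leydig cell markers 2 were higher and 0 lower, with sums of 51349 to 64254 and 40296 to 81430.2, which overlapped. Of 10 macrophage and 10 endothelial markers 3 and 2 were higher and 0 lower in either. Not all lists leaned as a whole. The median log2 fold change was 0.06 for Leydig (6 positive, 4 negative) and 0.10 for endothelial markers (8 positive, 2 negative). All genes had a median of 0.04. The part of these cells in the levels of Adcy7, Pde8b and Prkacb was not tested.

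Other genes of the pathway were taken from a list of 86 partners, 78 of them tested. Of these 11 were higher and 8 were lower, 24.4% of those tested against 19.9% of all genes, with a median log2 fold change of -0.01. At the receptor end, 2 of 13 receptor genes were higher. Npr2, the receptor of C-type natriuretic peptide and itself a guanylyl cyclase, had 468 to 557 in CTL and 853 to 949 in SKO-labelled libraries (log2 0.80; limma adjusted p = 0.0129). Fshr, the receptor of follicle-stimulating hormone on Sertoli cells, was 1.79-fold higher (limma adjusted p = 0.0413), with CTL 4 among the SKO-labelled libraries. Fshr kept its call in 1 of the 8 fits that left out a library (adjusted p up to 0.137) and lost it with median-ratio factors (limma adjusted p = 0.0599), an exon length correction and no variance trend. Among 7 G protein genes Gnas, whose product stimulates adenylyl cyclase, rose 1.79-fold (limma adjusted p = 0.0134) and Gnai2, whose product inhibits it, rose 1.53-fold (limma adjusted p = 0.0137). Gnal was 1.51-fold lower (limma adjusted p = 0.0357). Of the exon bases of Gnas 22.0% overlap other genes, so its reads cannot be fully told from theirs.

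Downstream, 2 of 9 genes of CREB factors and cofactors were higher, Crtc3 1.62-fold and Crtc2 1.36-fold, both of them CREB coactivators (limma adjusted p = 0.0185 and 0.0456). Crem, the CREB relative of spermatids, had means of 15342 and 11408 (limma adjusted p = 0.102). Of 12 tested genes of EPAC, Popeye, channel and other cyclic nucleotide binding proteins 3 were higher: Bves 2.63-fold, Hcn3 1.77-fold (17.1% of its exon bases overlap other genes) and Cngb1 1.65-fold. Of 11 tested anchoring genes without an Akap symbol Cbfa2t3 was 1.78-fold higher and Sphkap, which binds type I PKA, 1.90-fold lower (limma adjusted p = 0.0255 and 0.0272). None of 4 genes of PKA inhibitors and related kinases passed (0 at an unadjusted p below 0.05), nor did either tested nitric oxide synthase gene or Pde12.

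Among 19 tested sperm targets and docking proteins 6 were lower and 1 was higher, with a median of -0.43. Over all genes 7.93% were lower and 11.9% higher, and the count was not tested. Slc9c1, a sperm sodium-proton exchanger that works with soluble adenylyl cyclase, had 21950.2, 25458, 28545 and 41423 in CTL libraries 1 to 4, against 12460.2, 14206, 12289 and 14089.6 in SKO libraries 1 to 4. It was 2.15-fold lower without overlap (log2 -1.11, standard error 0.19; limma adjusted p = 0.0123). The anion transporter Slc26a8 was 1.97-fold lower. The accessory subunits of the CatSper calcium channel were lower for Catsperb (1.87-fold), Catsperg2 (1.61-fold), Catsperg1 (1.49-fold) and Catsperd (1.46-fold). Catsperz did not pass (log2 -0.39, limma adjusted p = 0.151). Of its exon bases 46.5% overlap Kcnk4, so its reads cannot be fully told from those of Kcnk4.

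The pore subunits Catsper1 to Catsper4 did not pass, with changes from -0.52 to -0.16, and no test compared them with the accessory subunits. Slc26a6 was 1.55-fold higher (limma adjusted p = 0.0329). Ropn1, Ropn1l, Spa17 and Cabyr, whose products dock on AKAP3 or the fibrous sheath, had changes between -0.37 and 0.14, and none passed. Of the exon bases of Spa17 36.9% overlap Siae. The fibrous sheath genes Fsip2 (-1.09; limma adjusted p = 0.120), Fscb (-0.74; limma adjusted p = 0.138) and Fsip1 (-0.43; limma adjusted p = 0.153) did not pass either. Without SKO 3 none of the partner calls held either. Of the 8 fits that left out a library, Gnas and Slc9c1 kept their call in 7, Bves in 6, Crtc3 in 5, Sphkap in 4, Cbfa2t3 in 3, Gnal in 2 and Slc26a6 in 1. Without other single libraries between 4 and 10 partners were higher and between 4 and 10 lower (4 higher without CTL 3, 5 without CTL 2 or SKO 2, 6 without CTL 1 or SKO 1, and 5 lower without CTL 3 or SKO 1, 4 without SKO 2).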

How the data were processed

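RNA-seq of testis was analysed in 8 libraries, 4 CTL and 4 N6amt1-SKO, grouped by their titles. The submitters' processing notes name HISAT2 2.0.5, featureCounts 1.5.0-p3, CASAVA and fastp, and the build mm10. Per the labels, the RNA came from a TRIzol extraction and the kit (NEBNext Ultra) does not mark strand. The authors deposited a score per gene and library, read counts multiplied by a factor and rounded: where the factor exceeded 1 (6 libraries), 100% of values from 5 to 1000 were rounded multiples of it, against 43.1% to 68.0% by chance. How the factors were obtained is not given in the sources.

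A count model does not hold for such values, so limma 3.58.1 (R 4.3.3) was used. The filter kept 17066 genes that reached 25 in 4 or more libraries. TMM factors (trims of 30% and 5%) rescaled each library, and values were taken as log2(value + 5), on which all fold changes are given; this understates changes of low genes. The fit had no covariate, a variance that follows the mean, two-sided tests and Benjamini-Hochberg adjustment over all genes at 0.05. Tests were checked on simulated data with independent genes, the same dispersion for every gene and no library sets. That check does not cover the differences between libraries seen here.

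The members, gene lists and alternatives were chosen with earlier results of these data known. Genes named were the 3 sperm genes, called members, the most abundant member of each role and the member with the smallest p where none was called. Others, among them Akap1, Adcy1, Adcy5, Pde4a, Prkar2a and Npr2, were chosen after their values were seen. Exon lengths, gene positions and overlaps come from GENCODE M21 (GRCm38), promoters from RefSeq. The lowest chi-square per gene between libraries was 36.4 (SKO 2 against SKO 3), the next 112.9 (CTL 1 against CTL 2), so no column copies another. Libraries made from the same RNA or animal are not excluded by it. Titles number libraries 1 to 4 in both groups, but deviations of same-numbered libraries correlated between 0.012 and 0.67, so they were not taken as pairs.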

Additional observations from a re-analysis of the deposited data

Results flagged for a closer look

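In 5 of 60 groups of 4 values of the named genes, 1 library stood far from the other 3; chance gives about 1 in 20. Akap4 was highest in SKO 1, at 78508, with 33154 to 39864 in the other 3 SKO-labelled libraries. Pde6d was highest in CTL 3, at 14626, with 11141 to 11423 in the other CTL libraries. Prkaca was lowest in SKO 4, at 8953, with 13228 to 14074 in the other SKO-labelled libraries. Prkg1 was lowest in CTL 3, at 1118, with 2000.1 to 2093 in the other CTL libraries. Fshr was highest in CTL 4, at 1613, with 829.5 to 919.9 in the other CTL libraries.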

How the results depend on the processing

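With 8 libraries per comparison, limits came from single libraries and from the scaling. The numbers of higher and lower members stayed within 1.5 times of 3 and 8 with median-ratio and upper quartile factors, constants of 1 and 50, no filter, no variance trend and an exon length correction, though Pde8b, Akap6, Fshr and Gnal each lost their call under 1 or more of these. With library totals they were 14 and 4, and 22 and 5 for partners (11 and 8), with a members' median of 0.32. With the 18S set as a covariate 6 members were higher and 11 lower, and 16 partners were lower. Over all genes that fit called 2801 higher and 2210 lower of 17066. In the 5 libraries with less 18S 8 members were higher and 12 lower, and 18 and 21 partners higher and lower. Over all genes 3194 were higher and 2283 lower there, of 17003. In the 3 libraries with more 18S the members' median was -0.30. There, limma had 1 SKO-labelled library, assumed to vary like the others. Counts over all genes moved too, from 0 to 2455 higher and 0 to 1526 lower when 1 library was left out. Without CTL 1 and CTL 2 0 members were higher and 10 lower, and 7 partners were higher. Over all genes that fit called 1798 higher and 2322 lower of 16998. Leaving out 1 library gave 0 to 6 higher and 0 to 10 lower members, 0 to 10 higher and 0 to 10 lower partners, members' medians of -0.06 to 0.02 and sperm-minus-general differences of -1.19 to -0.53. With the replicate block 3 members were higher and 9 lower, against 2162 and 1701 of all genes. Gnal lost its call there (limma adjusted p = 0.0633), and no other call of a named gene changed. Of the SKO-labelled libraries 0 correlated best with their own number.

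Sign reversals were those of genes that did not pass. Prkaca was 0.027 with upper quartile factors, 0.27 with library totals, 0.25 without CTL 1 and CTL 2, 0.048 without CTL 1, 0.034 without CTL 2 and 0.13 without SKO 4 (single libraries left out: -0.22 to 0.13). Prkar1a was 0.0047 with upper quartile factors and 0.25 with library totals. Pde6d was 0.0068 with library totals and 0.064 within the libraries with more 18S. Prkg1 was -0.17 within the latter and -0.020 without CTL 3 (single libraries left out: -0.020 to 0.46), and N6amt1 was -0.018 without CTL 1 and CTL 2. The cause was not tested. Of 630 values of named genes under other settings, 492 kept direction and side of the threshold, 117 lost the call and 8 gained one.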
